A study of Homo sapiens with 4 samples.

Results

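FOXK2 occupancy at 9 genes of the TFEB, MITF and folliculin axis was examined in the ChIP-seq peak lists of OVCAR5 cells, an established human ovarian cancer line labelled as high grade serous. The genes TFEB, MITF, TFEC, FLCN, FNIP1, FNIP2, RRAGA, RRAGC and RRAGD were taken as its members, and their peaks were all rows of both lists that carried one of these gene names. This gave 10 of 12471 peaks in replicate 1 and 14 of 27281 peaks in replicate 2. Both libraries came from biological replicates of cells grown in RPMI medium with serum, precipitated with an antibody against FOXK2, and the labels name no genotype, treatment or second condition. The input libraries and the reads were not analysed here, and the depth behind each peak was not examined. Because the lists were called separately and scores are scaled within a library, each peak is placed by its rank and by its score percentile, the share of peaks of the same list that scored lower with ties counted at their middle.

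TFEB, MITF and TFEC, together with TFE3, make up a family of basic helix-loop-helix leucine zipper factors that drive lysosome, autophagy and, for MITF in melanocytes, pigment genes through E-boxes. Folliculin, encoded by FLCN and lost in Birt-Hogg-Dube syndrome, acts with its partner FNIP1 or FNIP2 as a GTPase-activating complex for RagC and RagD. The Rag GTPases work as heterodimers of RagA or RagB with RagC or RagD on the lysosome, where they recruit mTORC1 and present TFEB and its relatives to it, and phosphorylated TFEB is held in the cytoplasm. FOXK2 is a forkhead factor whose family has been connected with repression of autophagy genes in nutrient-replete cells, and it binds the heptamer TGTTTAC.

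Peaks found in both replicates marked MITF, FLCN and FNIP2, that is 3 of the 9 genes, and for each of them at least 1 peak of replicate 1 overlapped a peak of replicate 2. FNIP1, RRAGC and TFEB had peaks only in replicate 2, and TFEC, RRAGA and RRAGD had none in either list. Among 20056 RefSeq protein-coding genes, 31.3% had a peak in replicate 1 and 51.7% in replicate 2, against 3 and 6 of the 9 genes. A peak in both replicates was called for 28.6% of protein-coding genes and overlapping peaks for 25.5%, beside 33.3% (3 of 9) for the axis under either rule. No peak in either list was recorded for 45.6% of protein-coding genes and for 33.3% of the axis. These shares lay near the background and are not a result about the members. A promoter peak in both replicates was carried by MITF and FLCN, 2 of the 9 genes (22.2%), beside 9.3% of all protein-coding genes, a comparison of 2 genes that was not tested.

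**Figure D1:**
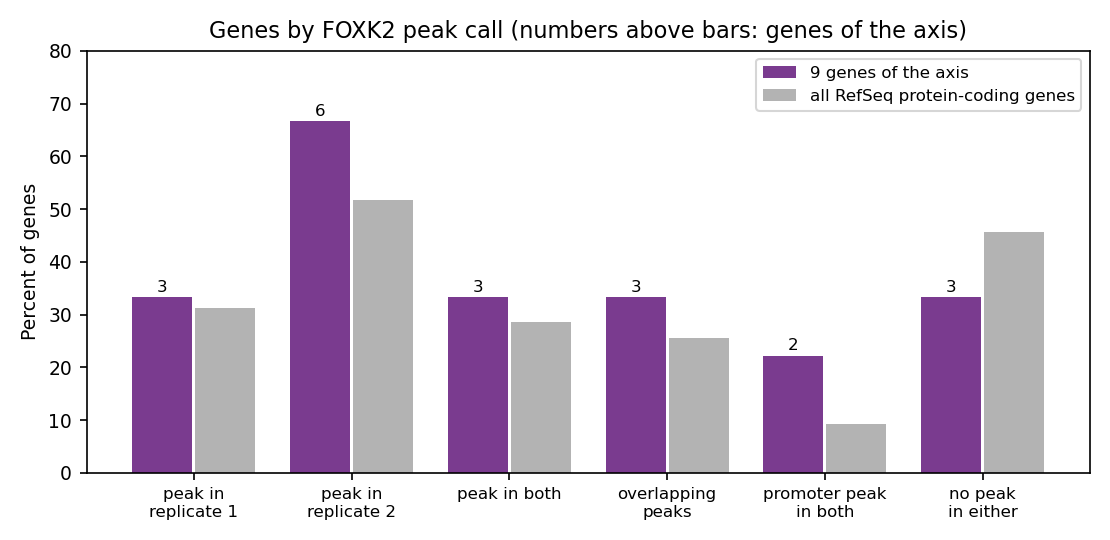
Percent of genes (vertical axis) that met each peak call, for the 9 genes of the axis (purple, with the number of genes above each bar) and for all 20056 RefSeq protein-coding genes (grey). The bars of the axis lie near the grey bars for a peak in both replicates (33.3% and 28.6%), and the promoter call rests on 2 genes.

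Long genes collect more peaks, so the count was also read by gene span, with limits chosen after the values were seen. Of genes that span at least 100000 bp, 41.7% had overlapping peaks, and of MITF, TFEC, FNIP1 and FNIP2, which are that long, 2 of 4 did. Of shorter genes 22.2% did, and of the remaining 5 members only FLCN did. By the mean score percentile of its best overlapping pair, MITF stood at position 1490 of 5111 protein-coding genes with such a pair, FNIP2 at 1984 and FLCN at 2066. All 3 genes lay above the median percentile of 72.4, at 86.1, 80.1 and 79.

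**Figure D2:**
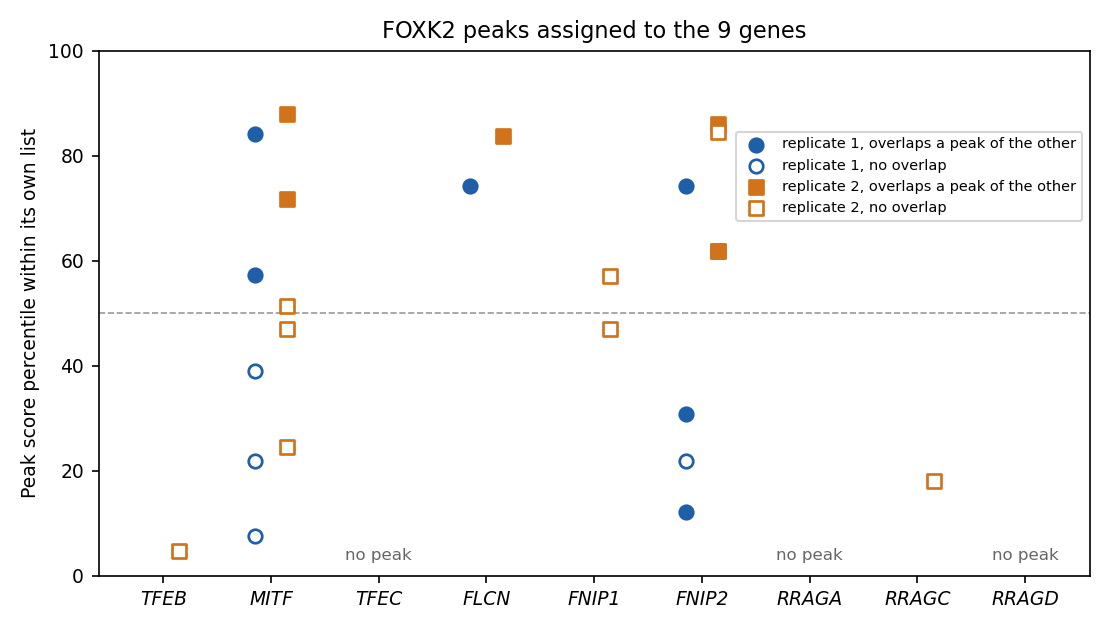
Score percentile within its own list (vertical axis) of each peak assigned to the 9 genes (horizontal axis), for replicate 1 (blue circles) and replicate 2 (orange squares), filled where the peak overlaps a peak of the other replicate; the dashed line marks the middle of a list, and one filled square of FNIP2 at 61.9 stands for a pair of tied peaks. Filled symbols appear only at MITF, FLCN and FNIP2, and TFEB and RRAGC hold a low replicate 2 peak each.

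MITF, the melanocyte lineage factor that other cells transcribe from more upstream starts, had 5 peaks assigned to it in each replicate, of which 2 overlapped. At least 2 overlapped replicate 1 peaks were assigned to 1260 protein-coding genes of any span (6.28% of all), and MITF itself spans 228881 bp. MITF covers chr3:69739456-69968336 on the plus strand (hg38). The leading site was the promoter of its most upstream isoform, at the start of transcript NM_198159. There the replicate 1 peak scored 9.81, rank 1915 and percentile 84.2, at -3 bp from the annotated start. The replicate 2 peak scored 15, rank 3243 and percentile 87.9, at -80 bp. The pair had 157 bp in common and their centres were 77 bp apart. Of the 500 replicate 1 peaks closest in rank, 96.4% had a partner, that is an overlapping peak in the other replicate, as did 74.4% of those closest in rank to the replicate 2 peak. The 2 RefSeq windows of 300 bases matched at starts further downstream, chr3:69763561-69763860 and chr3:69936342-69936641, held no peak, and other MITF starts were not examined this way.

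The part of the MITF promoter site common to both replicates that lies before the deposited, RefSeq and GENCODE starts is printed here because this best-scoring site of the axis held no forkhead heptamer (hg38, plus strand, chr3:69739327-69739434). It is rich in G and C (74.1%), and no letters are in capitals since neither TGTTTAC nor the related spelling TGTTTAT, the spelling TGTTTGC or the spelling TGTTTGT occurs on either strand.
MITF promoter: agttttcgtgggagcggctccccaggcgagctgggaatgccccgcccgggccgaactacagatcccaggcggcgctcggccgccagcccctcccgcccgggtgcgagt

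The other shared MITF site lay in intron 1 of the canonical GENCODE transcript, 30905 bp from the GENCODE start in replicate 1 and 30934 bp in replicate 2. It scored 6.41 in replicate 1 (rank 5169, percentile 57.3) and 10.1 in replicate 2 (rank 7625, percentile 71.7), with 205 bp in common. This site carried a single copy of TGTTTAT, 85 bp from the replicate 1 centre and 56 bp from the replicate 2 centre. In its common sequence the copy reads as ATAAACA on the plus strand and is in capitals (chr3:69770262-69770466, 38% G and C).
MITF intron site: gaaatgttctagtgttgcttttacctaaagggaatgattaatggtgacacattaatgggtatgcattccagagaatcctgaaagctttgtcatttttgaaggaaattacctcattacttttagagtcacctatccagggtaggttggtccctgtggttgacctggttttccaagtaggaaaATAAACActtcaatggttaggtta

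The remaining MITF peaks did not overlap between replicates, and all of them were intronic. A replicate 1 peak at 31617 bp from the start scored 5.28 and lay 450 bp from the nearest replicate 2 peak. A further replicate 1 peak at 48461 bp scored 4.53. Replicate 2 alone had peaks at 131957 bp (score 5.21, percentile 24.5) and at 167177 bp (score 6.99, percentile 46.9), the latter at -29967 bp from the start of NM_000248, the melanocyte transcript. Each of these 4 peaks was below the middle of its list.

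**Figure D3:**
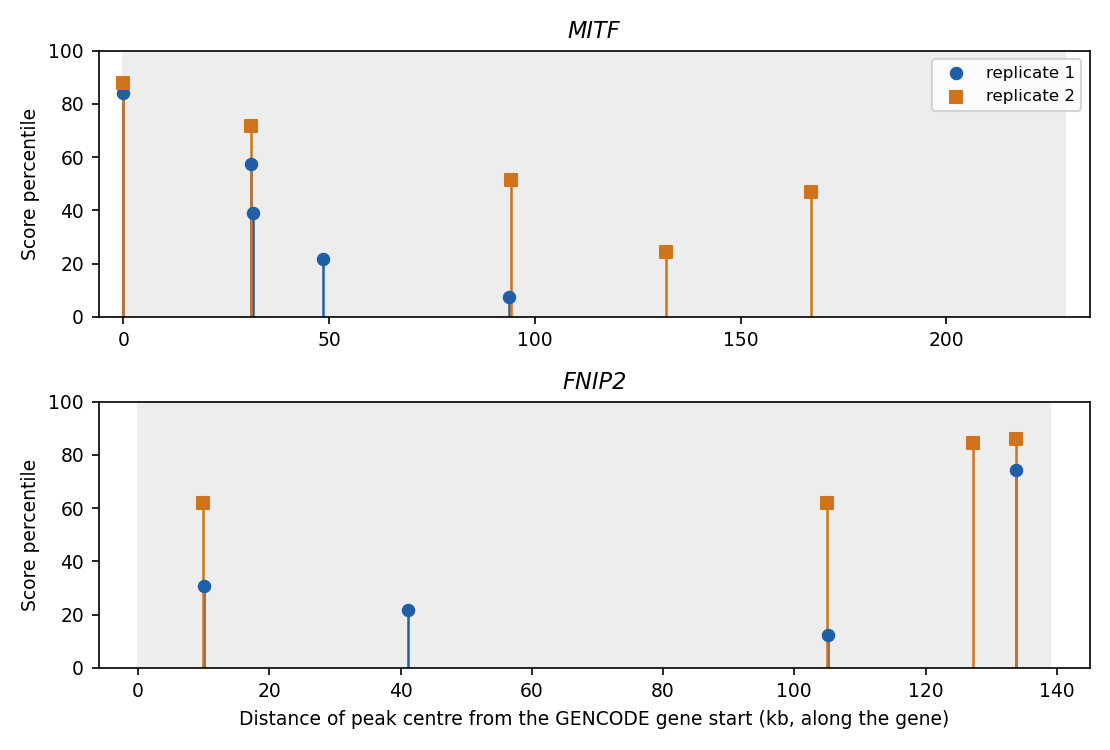
Score percentile within its own list (vertical axes) of the peaks assigned to MITF (upper) and FNIP2 (lower) by distance of the peak centre from the GENCODE gene start in kb along the gene (horizontal axis), replicate 1 as blue circles and replicate 2 as orange squares; the grey band is the gene span. MITF is led by its promoter, at percentiles of 84.2 and 87.9, and FNIP2 by the far end of the gene, at 74.2 and 86.

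A run of forkhead heptamers, noticed after the values were seen, lay under the remaining MITF peak of each replicate in intron 1, 93802 bp and 94281 bp from the start. The replicate 1 peak scored only 3.96 (rank 11262, percentile 7.54) and the replicate 2 peak 7.44 (rank 13065, percentile 51.4), and these calls were separated by 246 bp. The replicate 1 peak held 4 exact copies of TGTTTAC and the replicate 2 peak 5, each the highest number within 100 bp of a peak centre in its list. At least 4 copies were found in 2 of 12471 replicate 1 peaks (0.016%) and in 5 of 27281 replicate 2 peaks (0.0183%). From the start of one peak to the end of the other, a stretch of 713 bp, the heptamer occurred 11 times, always on the plus strand, with 2 copies not wholly inside either peak. The flanks of 1000 bp on each side held 1 copy. Neighbouring copies started 23 to 216 bp apart, and 3 of the 10 spacings were 27 bp. Both sequences are printed to show the copies in place (exact copies, and a TGTTTGC near the end of the replicate 2 peak, in capitals; chr3:69833153-69833363 and chr3:69833609-69833865, plus strand).
MITF run, replicate 1 peak: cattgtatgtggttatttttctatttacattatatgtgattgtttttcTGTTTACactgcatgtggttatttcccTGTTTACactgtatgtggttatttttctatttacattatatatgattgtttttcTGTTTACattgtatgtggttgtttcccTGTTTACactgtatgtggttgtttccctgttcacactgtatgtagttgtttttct
MITF run, replicate 2 peak: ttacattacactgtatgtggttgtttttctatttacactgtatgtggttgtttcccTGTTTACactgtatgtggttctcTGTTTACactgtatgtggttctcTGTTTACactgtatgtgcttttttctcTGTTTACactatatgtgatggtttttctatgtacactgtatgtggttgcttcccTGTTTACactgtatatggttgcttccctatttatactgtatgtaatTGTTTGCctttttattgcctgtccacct

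These 2 calls were counted as not overlapping, although they lie in a single tandem stretch. The reads were 50 bp long and single-end, and were mapped with Bowtie2 under standard settings, which report a single position for a read that matches several. Whether such reads were removed before peak calling is not given in the sources used here. Their part in the separation of the 2 calls was not tested.

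**Figure D4:**
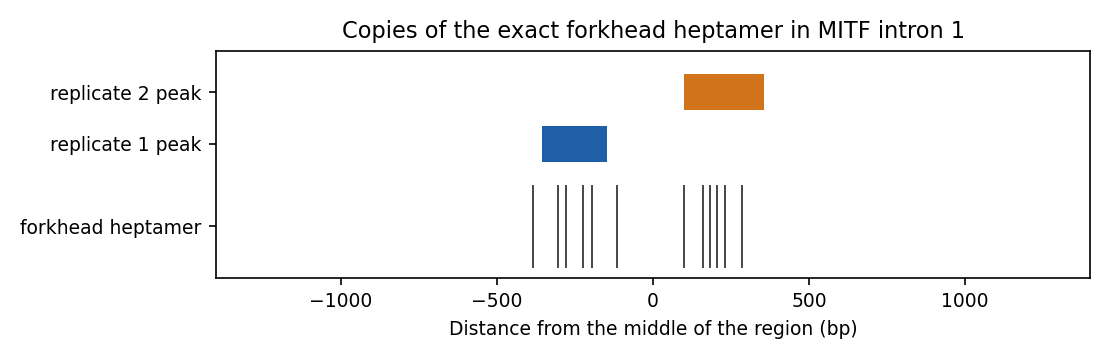
Exact copies of the forkhead heptamer (black ticks) and the called FOXK2 peaks of replicate 1 (blue) and replicate 2 (orange) in MITF intron 1, by distance in bp from the middle of the region (horizontal axis). The stretch of 713 bp holds 11 copies, and the flanks shown hold 1.

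TFEB, which links nutrient status to lysosome biogenesis and covers chr6:41683978-41736259 on the minus strand, had no peak in replicate 1 and 1 very weak peak in replicate 2. That peak scored 3.87, rank 25743 of 27281 and percentile 4.64, and of the 500 replicate 2 peaks closest in rank 2.2% had a partner in replicate 1. It lay at -4940 bp from the TFEB start, with its centre inside PGC, the pepsinogen C gene, and the deposited annotation places it in exon 7 of 7 of NM_001166424. The peak held 1 exact TGTTTAC, 33 bp from its centre. The nearest replicate 1 peak to a TFEB start was 101418 bp away and was assigned to MIR4641.

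TFEC, the family member best known from myeloid cells, carried no peak in either list. Its span of 224749 bp on chr7:115935148-116159896 contained no peak centre, and the nearest peaks to any of its starts were 58330 bp away in replicate 1 and 51580 bp in replicate 2, both assigned to TES. Of 1399 protein-coding genes that span at least 200000 bp, 22% had no peak in either list, and of TFEC and MITF, the members that long, TFEC had none. TFE3, the remaining paralog, was also without a peak, with the nearest calls 36450 bp away in replicate 1, at WDR45, and 29674 bp in replicate 2, at GRIPAP1.

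FLCN had 1 peak in each replicate, at its promoter, and they overlapped. The gene covers chr17:17212212-17237188 on the minus strand. The replicate 1 peak scored 8.11 (rank 3127, percentile 74.2) at -107 bp from the start, and the replicate 2 peak 13.2 (rank 4362, percentile 83.8) at -61 bp. They shared 188 bp, with centres 46 bp apart. Of the peaks closest in rank, 90.2% in replicate 1 and 69.8% in replicate 2 had a partner. As at MITF, the promoter site of FLCN held no TGTTTAC and none of the related spellings. The bases of the common part that precede every annotated start are printed as a second example of a shared promoter site without capitals (chr17:17237331-17237380, minus strand, 62% G and C).
FLCN promoter: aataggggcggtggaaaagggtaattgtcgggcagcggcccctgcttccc

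FNIP2, a partner of folliculin, had 4 peaks in each replicate, of which 3 overlapped, and none was at a promoter. At least 3 overlapped replicate 1 peaks were assigned to 347 protein-coding genes (1.73% of all), while the median of genes with any was 1. This share was taken over genes of any span, whereas FNIP2 spans 139025 bp. It also rests on the 1 bp overlap rule, since the intron 14 pair of FNIP2 had only 79 bp in common. Under a rule of 50% of the shorter peak that pair was not counted. The overlapped share of replicate 1 peaks of the axis was then 50%, beside 60% under the main rule. The gene covers chr4:158769026-158908050 on the plus strand. Its best site was in intron 16, 133751 bp from the start in replicate 1 and 133729 bp in replicate 2, close to the far end of the gene and within the overlapping gene C4orf45. The deposited detailed annotation places it in an L1PA7 element, a LINE repeat, in both replicates, and the part of read placement in repeats was not tested. The replicate 1 peak scored 8.11, which ties it with the FLCN peak at rank 3127 and percentile 74.2. The replicate 2 peak scored 14.1 (rank 3768, percentile 86). The whole replicate 1 peak, 211 bases, lay inside the replicate 2 peak, and the focus ratio, the fraction of tags on the expected side of the centre, was 0.898 and 0.934. These values compare with medians of 0.758 and 0.755 over all peaks. The site held 1 exact TGTTTAC, 1 bp from the replicate 1 centre and 23 bp from the replicate 2 centre, and it was the only shared site of the axis with the exact heptamer.

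A second peak in FNIP2 intron 16 appeared in replicate 2 only, 127186 bp from the start, with a score of 13.5 (rank 4149, percentile 84.6). It also had 1 exact TGTTTAC, 10 bp from its centre. The closest replicate 1 peak was 6332 bp away, whereas 66.8% of replicate 2 peaks closest in rank had a partner. Its sequence is printed with the heptamer in capitals to show it near the middle of the peak (chr4:158896084-158896340, plus strand).
FNIP2 intron 16, replicate 2 only: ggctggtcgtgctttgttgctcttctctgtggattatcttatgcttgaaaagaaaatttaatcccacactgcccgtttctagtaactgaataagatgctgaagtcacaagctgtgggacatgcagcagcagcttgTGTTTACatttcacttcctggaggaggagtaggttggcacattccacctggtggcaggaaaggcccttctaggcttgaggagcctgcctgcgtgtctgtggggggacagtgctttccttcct

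The other shared FNIP2 sites were weaker. Both were annotated as repeats in only one replicate, a LINE for the first in replicate 2 and a MIR for the second in replicate 1. In intron 1, 9982 bp from the start in replicate 1, the pair scored 4.9 (percentile 30.8) and 8.63 (percentile 61.9) with 207 bp in common and carried 1 TGTTTAT. In intron 14, 105098 bp from the start in replicate 1, it scored 4.15 (percentile 12.2) and 8.63 (percentile 61.9), with only 79 bp in common, centres 155 bp apart and no forkhead spelling in the common part. The last replicate 1 peak, 41162 bp into the gene, scored 4.53 and lay 30974 bp from any replicate 2 peak.

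FNIP1, the paralog of FNIP2 on chr5:131641714-131797017 (minus strand), had peaks in replicate 2 alone. An intron 1 peak, 49173 bp from the start, scored 8.03 (rank 11531, percentile 57.1) and held 1 exact TGTTTAC, 2 bp from its centre. The promoter peak scored 6.99 (rank 14263, percentile 46.9) at -94 bp from the annotated start. It held 2 copies of CACGTG, the E-box core that TFEB and MITF proteins bind, which was present in 10.1% of all replicate 2 promoter peaks. The closest replicate 1 peaks were 112382 bp and 161695 bp away, and 37.4% and 24.2% of peaks closest in rank had a partner. The intron 1 peak is printed on the gene's minus strand, where the heptamer reads GTAAACA, in capitals (chr5:131747716-131747972).
FNIP1 intron 1, replicate 2 only: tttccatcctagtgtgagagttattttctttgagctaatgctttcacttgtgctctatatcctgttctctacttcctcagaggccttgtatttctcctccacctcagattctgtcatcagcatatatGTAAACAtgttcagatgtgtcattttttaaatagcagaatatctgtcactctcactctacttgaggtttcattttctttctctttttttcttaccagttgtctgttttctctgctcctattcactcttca

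Among RRAGA, RRAGC and RRAGD, the Rag GTPase genes of the set, only RRAGC had a peak, in replicate 2. RRAGC (chr1:38838198-38859772, minus strand) encodes RagC, the substrate of the folliculin complex, and its intron 1 peak scored 4.76 (rank 22077, percentile 18.1), 1009 bp from the start. It held no exact TGTTTAC but 3 copies of the related spellings. Of the peaks closest in rank, 6.6% had a partner in replicate 1, where the nearest peak was 127795 bp away. RRAGD (chr6:89364616-89412273, minus strand), which encodes RagD and is a target of TFEB in its own right, had no peak, and the closest calls to its start were 58697 bp away in replicate 1, at UBE2J1, and 113591 bp in replicate 2, at GABRR2. RRAGA, an intronless gene of 1599 bp on chr9:19049427-19051025 that encodes RagA, had no peak either, and the closest calls were 655607 bp in replicate 1 and 348663 bp in replicate 2 from its start. RRAGB, its paralog on chromosome X, had a weak promoter peak in replicate 2 (score 4.16, percentile 9.03) and none in replicate 1. A peak called in one list only does not show that FOXK2 was absent from the site in the other library.

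The peaks of the axis were mostly intronic in the deposited annotation. Introns held 8 of 10 in replicate 1 (80%) and 10 of 14 in replicate 2 (71.4%), beside 39% and 40.6% of all peaks, and no peak of the axis was intergenic, beside 34.1% and 36.5%. All 8 intronic peaks of replicate 1 and 8 of the 10 of replicate 2 lay in the long genes MITF (228881 bp) and FNIP2 (139025 bp). Promoters held 2 and 3 of them (20% and 21.4%, beside 21.7% and 18%). The median score percentile was 34.9 in replicate 1 and 59.5 in replicate 2, with scores from 3.96 to 9.81 and from 3.87 to 15. Overlap between replicates was found for 6 of 10 peaks in replicate 1 (60%, exact 95% interval 26.2% to 87.8%) and for 6 of 14 in replicate 2 (42.9%, 17.7% to 71.1%), while 74.9% and 34.2% of all peaks overlapped. The intervals cover counting error only, and peaks of a single gene are not independent.

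The exact heptamer TGTTTAC was found no further than 100 bp from the peak centre in 2 of 10 peaks of replicate 1 (20%) and 5 of 14 of replicate 2 (35.7%), beside 30.5% and 28.2% of all peaks. All 7 of these peaks were outside promoters, as none of the 5 promoter peaks held it, and over all promoter peaks it was present in 14.4% and 10.9%. With these related spellings added, the counts were 6 and 8 (60% and 57.1%, beside 47.6% and 45.9%). The AP-1 site, TGACTCA or TGAGTCA, was in none of the 10 and 14 peaks, beside 16.4% and 16.6% of all peaks, a difference that was not tested. Outside the 100 bp window, an AP-1 site lay near the shared FNIP2 intron 1 site, 177 bp from the replicate 1 centre and 204 bp from the replicate 2 centre. CACGTG was in 1 peak of each replicate (10% and 7.14%, beside 6.02% and 5.21%), a MITF intron 1 peak and the FNIP1 promoter peak. Motifs were searched on both strands, and a match is a description of the letters, not evidence of a bound factor. RefSeq promoter windows of 300 bases (GRCh38.p14) were matched for 7 members, all but RRAGA and RRAGD, with 13 windows in all, and 0 of the 13 held TGTTTAC, beside 3.42% of 35116 windows of the same length. CACGTG was in the windows of FNIP1 and RRAGC, 2 of 13, beside 7.26% of all.

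The surrounding pathway was read from a list of 28 genes for lysosomal nutrient sensing and mTORC1 control. Overlapping peaks marked 7 of them (25%, beside the 25.5% of all protein-coding genes). A promoter peak in both replicates was found for 5 of 28, beside 9.3% of all protein-coding genes. No peak was found for 11 of 28, beside 45.6%. The list was chosen with earlier results of these data known, and these shares were not tested. The best site was at the promoter of TSC1, a brake on Rheb, with scores of 24.7 (rank 156) and 46.7 (rank 177) and an exact TGTTTAC in both replicates. Next came the promoters of MLST8, an mTOR subunit (13.8 and 18.1), and LAMTOR1, the membrane anchor of the Ragulator scaffold (6.79 and 16.4). RPTOR, the mTORC1 subunit that the Rag GTPases contact, had weaker promoter peaks (4.72 and 10.3), as did MTOR (3.96 and 8.63), while the best RHEB pair was intergenic (4.9 and 8.92). DEPDC5, NPRL2 and NPRL3, which form the GATOR1 complex that acts on RagA, were among the 11 genes with no peak in either list. They were named after their values were seen, and 45.6% of all protein-coding genes also had no peak.

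A second list held 21 genes known as targets of TFEB or MITF proteins. Overlapping peaks marked 10 of them (47.6%, beside 25.5%). A promoter peak in both replicates was found for 6 of 21 and no peak for 3 of 21, again beside 9.3% and 45.6%. This list was also chosen with earlier results of these data known, so the shares are a description only and were not tested. WIPI1, an early autophagy protein, scored 78.1 and 165.5 at its promoter, rank 3 in each list, with no TGTTTAC in either peak. SQSTM1, the autophagy receptor p62, scored 60.4 (rank 8) and 113.3 (rank 10) and held an exact TGTTTAC in both. Scores were much lower at the promoters of ATP6V0E1, a V-ATPase subunit (13.8 and 24.8), and of CTSD, the lysosomal protease cathepsin D (9.43 and 22.9). MLANA, a melanocyte antigen, had an intergenic pair at -11128 bp in replicate 1 (12.1 and 23.1), which ranked above the CTSD pair in both lists. PPARGC1A, a coactivator of mitochondrial genes, had an intergenic pair at -3517 bp in replicate 1 (10 and 15.9). Of the other melanosome genes in the list, TYR and GPNMB had peaks in replicate 2 only and DCT and PMEL had none. Every peak of the 9 genes of the axis ranked below the best sites of WIPI1, SQSTM1 and TSC1 in its own list.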

How the data were processed

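FOXK2 ChIP-seq peak lists of 2 biological replicates were used as deposited. The authors aligned reads to hg38 with Bowtie2 2.2.6 and called peaks with HOMER 4.10 for each replicate. The deposited columns used were the HOMER peak score, the focus ratio (a fraction), and the signed distance to the nearest TSS; the study also tested peaks against input, but whether input entered the calling of these lists is not given in the sources used here. Peaks span 210 and 256 bp between the start and end given.

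Gene names were those of the lists. The members and gene lists were chosen with earlier results of these data known. Peaks were paired by an overlap of at least 1 bp. The background was 20056 RefSeq protein-coding genes (GRCh38.p14), matched by Entrez ID, to which 10896 of 11039 protein-coding IDs of the lists matched. Ranks give ties their lowest number. Gene spans and introns are from GENCODE release 44 (canonical transcript), sequences from hg38, and promoter windows from RefSeq. The sequence of the shared FNIP2 intron 16 site is not reported here. Named pathway genes were the 6 per list with the best mean percentile among genes with overlapping peaks, plus TFE3 and RRAGB; others named were chosen after their values were seen. No test was run, as there is 1 condition and the 2 input libraries were not analysed here. Simulated peaks and sequences were used to test the pairing and motif search. Python 3.11.15, numpy 2.4.6, pandas 2.3.3, scipy 1.17.1, pysam 0.24.0, statsmodels 0.14.6 and matplotlib 3.10.9 were used.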

Additional observations from a re-analysis of the deposited data

How the results depend on the processing

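No paired analysis was possible because no result comes from a test and only the FOXK2 libraries were used. Of 50 alternative values, 36 stayed near the main value (a count within 1.5 times, a share inside its 95% interval) and 14 moved; the alternatives themselves (fewer peaks, 1 list, more spellings) change what is counted. The 3 members with a peak in both replicates, and the 3 with overlapping peaks, became 3 to 6 on leaving out either library, and the 2 with promoter peaks in both became 2 to 3. By GENCODE gene span both of the former counts were 2, and within 10000 bp of the TSS the overlapping count was 2. Keeping peaks above the median score of their list left 4 and 9 peaks of the axis in replicates 1 and 2; all 4 of the former (100%) overlapped, beside 88.7% of all replicate 1 peaks so kept, and 1 held TGTTTAC. Lists of equal length left 8 peaks in replicate 2, 3 with TGTTTAC. Within 10000 bp of the TSS there were 5 and 8 peaks, with TGTTTAC in 0 and 1. For TGTTTAC, shares of all peaks under these settings are not given here, so its counts have no background. With the related spellings, 6 and 8 peaks held a site. Counting peaks within 500 bp of each other as paired, chosen after seeing the data, gave 8 of 10 peaks (80%), beside 77.1% of all replicate 1 peaks. With 2 libraries whose depth was not examined, sites called in replicate 2 alone cannot be told apart here from sites missed in replicate 1.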
